A study of Mus musculus with 9 samples.

Results

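MMERVK10C and RLTR10 elements are mouse endogenous retroviruses of the ERVK class, and their RNA was measured here in embryonic stem cells (ESCs) that lack the telomerase RNA gene Terc. The members were all copies whose repeat name starts with MMERVK10C or RLTR10, which gave 3306 of the 623916 repeat copies in the table and 11 of its 1034 repeat names. The 11 names were the internal parts MMERVK10C-int with 949 copies and RLTR10-int with 779 copies, and the LTR names RLTR10C (557 copies), RLTR10 (524), RLTR10B2 (123), RLTR10A (120), RLTR10D (78), RLTR10B (64), RLTR10D2 (40), RLTR10F (37) and RLTR10E (35). Total RNA came from C57BL/6 ESC cultures after removal of feeder cells, with 3 libraries each of wild type (WT), G1 Terc-/- and G4 Terc-/- ESCs, described as early passage. G1 cells were the first generation without Terc, derived from intercrosses of Terc+/- mice. G4 cells came from intercrosses of G3 Terc-/- mice, so that both mutant groups share the deletion and differ in how many generations it lasted and in telomere length. The labels do not say whether the 3 libraries of a group were separate cultures or separate lines, and the study's methods state another number of biological replicates for RNA-seq, so whether the libraries are biological replicates is not settled here. For that reason the p-values measure the spread between these libraries, and line and generation cannot be told apart.

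A provirus of this kind has a long terminal repeat (LTR) at each end of an internal part. The LTR holds the promoter and the polyadenylation signal, and the internal part codes for the Gag and Pol proteins. Recombination between the LTRs of 1 provirus leaves a lone LTR. In mouse ESCs most ERVK elements are silenced by KRAB zinc finger proteins that recruit TRIM28 and the H3K9 methyltransferase SETDB1, and MMERVK10C is known for its release in mouse neural progenitors that lack Trim28.

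The pairing of LTR and internal part could be read from the positions of the copies. Of the 1578 LTR copies, 764 lay within 100 bp of an internal copy on the same strand and were called joined, and 814 were lone. The neighbour was MMERVK10C-int for 97.3% of the joined RLTR10C copies (248 copies), 81.8% of RLTR10B, 53.6% of RLTR10B2, 84.6% of RLTR10E and 90.0% of RLTR10F. It was RLTR10-int for 95.7% of the joined RLTR10 copies (330 copies) and 80.6% of RLTR10A. RLTR10D was joined to IAP-d-int in 93.2% of its joined copies and RLTR10D2 to MMERVK10D3_I-int in 93.8%. Copies on the same strand within 100 bp of each other made 2047 loci, of which 610 held at least 2 copies.

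The members were then set beside other repeats by place and by likeness to the consensus. 48.4% of them were over 5 kb from any gene of the GENCODE vM21 annotation, against 30.6% of the 43412 other ERVK copies. A further 18.1% of all members were within 5 kb of a gene, 30.0% were intronic and 3.45% exonic. The fifth field of the copy identifier is read here as the divergence from the consensus in bases per 1000, an inference from the values. Its median was 44 for the members, 151 for other ERVK copies and 215 for all copies, while a lower median, 30, was found for IAPEz-int, another ERVK name. Reads that match several copies were split between them upstream of the table. Only 47.7% of the members had whole values in every library, against 76.5% of other ERVK copies and 91.2% of all copies, so that values of single copies are less certain than sums over a name or a locus.

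Sequences of a few copies could be read where a RefSeq promoter window (300 bp from GRCm38.p6, on the strand of the gene) overlaps a member copy, which was the case for 27 of 32851 windows. Of these, 6 pairs of window and copy had at least 20 counts in the copy, and 4 are printed here. They show stretches of an internal part and of LTRs at RefSeq starts. Counts are held per whole copy, so how many reads lie in a printed stretch is not known. Bases inside the member copy are in capitals and bases outside it in lower case. Gm40100 starts inside the MMERVK10C-int copy that held the most counts over 5 kb from any GENCODE gene (window chr3:96508731-96509030, minus strand). Gm40100 is itself a RefSeq gene, so reads of that transcript and of the copy cannot be told apart. Gm37116 starts in an RLTR10A copy (chr3:88284749-88285048, minus strand), 1190028D05Rik in an RLTR10D2 copy (chr8:52356361-52356660, plus strand) and a promoter of Bglap3 in an RLTR10D copy (chr3:88372692-88372991, minus strand).
Gm40100: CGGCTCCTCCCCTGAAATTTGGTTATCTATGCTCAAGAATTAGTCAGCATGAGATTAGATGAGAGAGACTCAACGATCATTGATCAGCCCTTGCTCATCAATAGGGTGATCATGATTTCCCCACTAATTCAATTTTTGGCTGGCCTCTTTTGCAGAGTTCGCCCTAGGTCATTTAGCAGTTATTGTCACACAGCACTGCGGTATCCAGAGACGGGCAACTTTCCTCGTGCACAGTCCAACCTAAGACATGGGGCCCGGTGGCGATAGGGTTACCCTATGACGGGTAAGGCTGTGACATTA
Gm37116: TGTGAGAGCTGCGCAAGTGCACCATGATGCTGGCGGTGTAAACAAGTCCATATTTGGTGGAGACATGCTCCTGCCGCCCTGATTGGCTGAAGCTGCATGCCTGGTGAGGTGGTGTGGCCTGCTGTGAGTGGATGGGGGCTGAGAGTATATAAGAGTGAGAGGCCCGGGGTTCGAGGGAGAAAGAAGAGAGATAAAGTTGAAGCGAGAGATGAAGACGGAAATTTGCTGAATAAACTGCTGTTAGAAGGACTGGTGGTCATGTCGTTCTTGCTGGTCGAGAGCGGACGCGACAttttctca
1190028D05Rik: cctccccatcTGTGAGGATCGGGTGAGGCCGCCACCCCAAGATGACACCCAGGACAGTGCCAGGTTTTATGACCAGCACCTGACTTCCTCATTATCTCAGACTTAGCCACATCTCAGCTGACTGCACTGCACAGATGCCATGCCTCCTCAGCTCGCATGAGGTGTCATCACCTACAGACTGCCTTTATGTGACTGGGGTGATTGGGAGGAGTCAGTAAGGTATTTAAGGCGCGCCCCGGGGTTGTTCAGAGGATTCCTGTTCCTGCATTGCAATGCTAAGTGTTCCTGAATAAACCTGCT
Bglap3: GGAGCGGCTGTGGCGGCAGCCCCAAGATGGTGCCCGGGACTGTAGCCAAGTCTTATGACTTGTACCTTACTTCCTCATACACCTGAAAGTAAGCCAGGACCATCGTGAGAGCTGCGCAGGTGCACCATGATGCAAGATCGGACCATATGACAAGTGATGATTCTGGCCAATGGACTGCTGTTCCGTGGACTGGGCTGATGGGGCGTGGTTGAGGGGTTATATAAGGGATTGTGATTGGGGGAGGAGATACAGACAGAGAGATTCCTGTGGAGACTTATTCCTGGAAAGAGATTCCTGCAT

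All windows were searched on both strands for the TATA box form TATAAA, for the longer form TATATAA, which can overlap it, and for the polyadenylation signal AATAAA. The longer form is in the windows of Gm37116 and Bglap3 and in 3.24% of all promoter windows. The polyadenylation signal is in those of Gm37116 and 1190028D05Rik and in 19.6% of all windows. TATAAA is in none of the 4 and in 13.6% of all windows. The summed counts of the 3 libraries of WT, G1 and G4 were 951, 434 and 108 for the copy at Gm40100 and 49, 61 and 60 for the RLTR10A copy at Gm37116. They were 16.6, 11.4 and 5.4 for the RLTR10D2 copy at 1190028D05Rik and 0.5, 3.5 and 19.7 for the RLTR10D copy at Bglap3. The pairs not printed were another RLTR10D copy at a further Bglap3 window, with 4, 3 and 27.9 summed counts, and an MMERVK10C-int copy at Cd209c, with 0, 2.2 and 19.9. The copy at Cd209c was thus highest in G4, opposite to the copy of the same name at Gm40100. A match of letters is a description of the window and not a site in use.

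Each library held 918879 to 1137257 counts over all repeat copies (median 992072), and the members took 0.386 to 0.40% of them in WT, 0.304 to 0.313% in G1 and 0.372 to 0.378% in G4. Of the 3306 members, 2479 had under 5 counts over all 9 libraries. Terc has no row in the repeat table, but repeats beside it differ with the labels. Copies of other repeats within 6000 bp of Terc (chromosome 3, 96414437 to 96414859) summed to 42 counts over WT libraries, 441 over G1 and 460 over G4. The G1 and G4 sums rest on different copies. In WT, G1 and G4, RLTR31_Mur had 10, 3 and 120 counts and MYSERV16_I-int 17, 11 and 109. The highest in G1 were BGLII_B, with 0, 121 and 61, and MURVY-LTR, with 0, 107 and 57. Genes could be read only through repeat copies in their exons, with a kit that does not mark strand, so reads of a gene and of a copy in it cannot be told apart. In bulk RNA, fewer cells of a type and less RNA per cell cannot be told apart either.

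Levels are given as CPM, the count scaled to the TMM-adjusted total of its library. MMERVK10C-int was at 2279, 2465 and 2205 CPM in the 3 WT libraries, at 1443, 1496 and 1514 CPM in G1 and at 1159, 1131 and 1189 CPM in G4. The groups did not overlap, and the level was lower in G1 than in WT and lower again in G4. The log2 fold change in edgeR's quasi-likelihood test was -0.998 in G4 against WT (SE 0.051, adjusted p = 1.57e-12), -0.64 in G1 against WT (SE 0.0505, adjusted p = 1.26e-08) and -0.36 in G4 against G1 (SE 0.0521, adjusted p = 1.56e-05). RLTR10C, the LTR that flanks it, was at 308, 332 and 295 CPM in WT, 281, 259 and 255 CPM in G1 and 209, 218 and 191 CPM in G4. It fell by 0.59 on the log2 scale in G4 against WT (SE 0.0887, adjusted p = 1.28e-05) and by 0.36 in G4 against G1 (adjusted p = 0.00281), while the difference between G1 and WT was -0.23 (SE 0.087) and did not pass (adjusted p = 0.102), although the libraries did not overlap. Counted over copies with whole values alone, which hold 18.9% of the MMERVK10C-int counts and 54.3% of those of RLTR10C, MMERVK10C-int differed by -0.34 in G4 against WT (adjusted p = 0.00416), and RLTR10C by -0.25 (adjusted p = 0.107). The other differences of both names were not called there: for MMERVK10C-int -0.28 in G1 against WT (adjusted p = 0.095) and -0.07 from G1 to G4 (adjusted p = 0.655), and for RLTR10C -0.17 from G1 to G4 (adjusted p = 0.316). With library totals the RLTR10C difference from G1 to G4 was -0.22 (adjusted p = 0.0569).

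Summed over all their copies, RLTR10-int and RLTR10 went the other way in G4, while their single loci and places were mixed, as given below. RLTR10-int, the internal part, was at 556, 536 and 602 CPM in WT, 563, 582 and 604 CPM in G1 and 807, 883 and 881 CPM in G4. The G4 libraries were above all the others, and WT and G1 overlapped. The log2 fold change was 0.60 against WT (SE 0.065, adjusted p = 1.91e-07) and 0.56 against G1 (adjusted p = 7.47e-07). The RLTR10 LTR was at 309, 314 and 295 CPM in WT, 290.4, 309.5 and 279 CPM in G1 and 377.3, 410 and 366 CPM in G4. It too was higher in every G4 library, by 0.33 on the log2 scale (SE 0.0785, adjusted p = 0.00164). RLTR10A was at 132, 107 and 104 CPM in WT, 114, 108 and 126 CPM in G1 and 184, 194 and 189 CPM in G4, a rise of 0.72 in G4 against WT (SE 0.115, adjusted p = 2.89e-05). 1 copy held 26.0% of its counts, and without it the rise was 0.35 in G4 against WT (adjusted p = 0.0487) and 0.46 in G4 against G1 (adjusted p = 0.0157).

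RLTR10F had the largest change of the 11 names. It was at 126, 126 and 129 CPM in WT, 132, 151 and 135 CPM in G1 and 354, 356 and 338 CPM in G4. The G4 level was 2.75 times the WT level (log2 fold change 1.46, SE 0.0928, adjusted p = 6.71e-11), with no overlap. 5 copies held 94.2% of its counts, so the name stands for few places. RLTR10D, the LTR of IAP-d, was at 45.1, 55.0 and 73.7 CPM in WT, 67.9, 80.6 and 58.6 CPM in G1 and 113, 146 and 149 CPM in G4. It rose by 1.23 on the log2 scale in G4 against WT (SE 0.174, adjusted p = 6.62e-06), with WT and G1 overlapping. Neither call held over copies with whole values, where RLTR10F differed by 0.59 (adjusted p = 0.316) and RLTR10D by 0.55 (adjusted p = 0.0669).

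RLTR10E was at 115, 101 and 132 CPM in WT, 149, 149 and 136 CPM in G1 and 96.5, 130 and 152 CPM in G4, and its G4 libraries spread over the range of the others (log2 fold change 0.12, adjusted p = 0.556, G4 against WT). 59.8% of its counts lay in 1 copy in an exon of Tfb2m. The names with under 50 counts per library did not pass in any contrast, except that RLTR10B did without G4 replicate 2 (-0.70, adjusted p = 0.0499), and their G4 against WT differences were -0.40 for RLTR10B, -0.14 for RLTR10B2 and -0.23 for RLTR10D2. Of the 11 names 5 thus rose and 2 fell in G4 against WT, where 46.5% of all 853 names tested were called (23.1% higher and 23.4% lower). In G1 against WT no name rose and 1 fell, with 11.8% of all names called (5.51% higher and 6.33% lower). In G4 against G1 the same 5 and 2 names were called as in G4 against WT, with 42.4% of all names called (19.5% higher and 23.0% lower). The median log2 fold change of the 11 names was 0.12, -0.02 and 0.28 in these contrasts, and that of all names 0.00, 0.01 and -0.02. The scaling matters for such small shifts: with plain library totals the median of all names moved to 0.14 in G4 against WT and 0.12 in G4 against G1, and the share of calls that were higher went from 49.6 to 67.8% and from 45.9 to 72.0%.

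**Figure D1:**
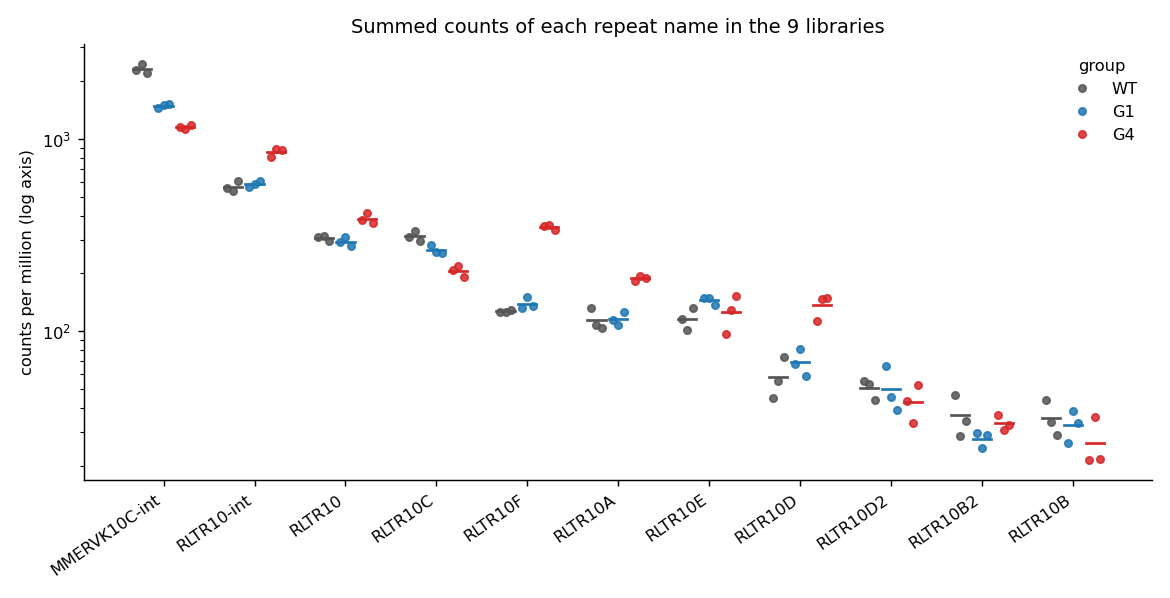
Level of the 11 repeat names in each of the 9 libraries (CPM after TMM scaling, log axis). Points are libraries and the horizontal lines group means; MMERVK10C-int and RLTR10C are lowest in G4, while RLTR10-int, RLTR10, RLTR10A, RLTR10D and RLTR10F are highest there.

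Since the internal part and its LTRs are counted apart, their ratio shows how the balance moved. The log2 ratio of MMERVK10C-int to the sum of the RLTR10 LTR names was 1.00 ± 0.0837 for WT, 0.38 ± 0.0798 for G1 and -0.36 ± 0.0818 for G4 (SD, n = 3 libraries, no overlap, exact permutation p = 0.1 for each pair of groups, two-sided, the smallest p that 3 against 3 libraries can give). That ratio mixes LTRs of several proviruses. Against RLTR10C alone the log2 ratio was 2.90 in WT, 2.49 in G1 and 2.49 in G4 (exact p = 0.1 for each mutant group against WT and 0.9 between G1 and G4). RLTR10-int to RLTR10 was 0.88 in WT, 0.99 in G1 and 1.16 in G4 (exact p = 0.1 for G4 and 0.4 for G1 against WT, and 0.3 between G1 and G4). These ratios depend on which copies are summed. Over copies over 5 kb from genes MMERVK10C-int to RLTR10C was lower by 0.60 in G4 than in G1 (exact permutation p = 0.1), where it differed by 0.01 over all copies, and RLTR10-int to RLTR10 differed by -0.48 in G4 against WT (exact permutation p = 0.2), opposite in sign to all copies. Over copies with whole values MMERVK10C-int to RLTR10C differed by -0.08 in G4 and by -0.19 in G1 against WT (exact permutation p = 0.5 and 0.3), and MMERVK10C-int to the summed LTR names by -0.50 and -0.34 (exact permutation p = 0.1 and 0.3).

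Where a copy lies changed the picture within a name. MMERVK10C-int over 5 kb from genes was at 1392, 1459 and 1278 CPM in WT, 648, 724 and 704 CPM in G1 and 303, 288 and 288 CPM in G4. These copies fell by 2.23 on the log2 scale in G4 against WT (SE 0.0869, adjusted p = 2.03e-21), by 0.99 in G1 against WT and by 1.24 in G4 against G1. In exons the same name was at 228, 272 and 268 CPM in WT, 271, 213 and 242 CPM in G1 and 375, 412 and 457 CPM in G4, a rise of 0.70 in G4 against WT (adjusted p = 2.38e-06). The exonic rise rests on 1 copy, chr5:114822402-114822894, which held 82.2% of the exonic counts. Without it the exonic copies differed by -0.03 (adjusted p = 0.928). The difference between the far and the exonic change was -2.93 (SE 0.138, from both SEs), and -2.01 (SE 0.217) without the leading copy of each class. Intronic copies fell by 0.85 and copies within 5 kb of a gene by 0.39 in G4 against WT, and by 0.35 (adjusted p = 0.0177) and 0.53 in G1 against WT. The intronic fall in G1 was lost without WT replicate 2, G1 replicate 1 or G1 replicate 3 (adjusted p = 0.0781, 0.0505 and 0.0653). The fall near genes did not hold without WT replicate 2 in either contrast, at -0.28 (adjusted p = 0.0765) and -0.41 (adjusted p = 0.0555), nor with library totals in G4 against WT, at -0.23, and was larger without the leading copy near genes (-0.78 in G4 against WT).

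RLTR10C fell far from genes. There it was at 100, 125 and 99.6 CPM in WT, 73.4, 81.4 and 70.9 CPM in G1 and 40.3, 58.5 and 47.4 CPM in G4. Its log2 fold change was -1.14 in G4 against WT (SE 0.17, adjusted p = 1.29e-06) and -0.52 in G1 against WT (adjusted p = 0.0457). The G1 call was lost without WT replicate 2 or any 1 of the G1 libraries (adjusted p = 0.206, 0.0994, 0.0577 and 0.158) and with library totals (adjusted p = 0.0538), and was -0.33 without the leading copy (adjusted p = 0.425). Near genes RLTR10C fell by 0.58, a call lost without WT replicate 2, WT replicate 3, G4 replicate 1 or G4 replicate 3 with library totals (-0.43, adjusted p = 0.13) and without its leading copy (adjusted p = 0.0614). In exons it fell by 0.93, lost without WT replicate 1 (adjusted p = 0.0677) or without its leading copy (-0.42, adjusted p = 0.354), and in introns it differed by -0.15 (adjusted p = 0.471).

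RLTR10-int and RLTR10 rose far from genes, and neither rose in introns. RLTR10-int over 5 kb from genes was at 70.0, 79.0 and 67.8 CPM in WT, 66.5, 83.7 and 81.8 CPM in G1 and 193, 194 and 204 CPM in G4, a rise of 1.45 in G4 against WT (SE 0.138, adjusted p = 9.97e-11). Its intronic copies, which held 49.7% of its counts, differed by 0.03 (adjusted p = 0.872), and the difference between both was 1.43 (SE 0.17). RLTR10 over 5 kb from genes was at 34.3, 23.5 and 25.7 CPM in WT, 37.0, 42.2 and 26.8 CPM in G1 and 88.3, 129 and 100 CPM in G4, a rise of 1.93 (SE 0.206, adjusted p = 1.33e-09). The intronic RLTR10 copies, with 59.9% of its counts, fell by 0.31 (adjusted p = 0.0243), 2.25 below the far copies (SE 0.234), and that fall was lost with library totals (-0.16, adjusted p = 0.259), without the leading copy (-0.24, adjusted p = 0.129) and without WT replicate 2, G4 replicate 2 or G4 replicate 3 (adjusted p = 0.0903, 0.0532 and 0.0564). Scaling moved the far values: fitted on copies over 5 kb from genes alone, RLTR10-int rose by 1.08 and RLTR10 by 1.57 in G4 against WT. In that fit RLTR10A rose by 0.84, MMERVK10C-int fell by 2.60 and RLTR10C by 1.51, all still called. The far minus intronic differences of 1.43 and 2.25 belong to the scaling over all copies. Near genes RLTR10-int rose by 1.06 and in exons by 0.89. RLTR10 rose by 0.71 near genes, lost without WT replicate 3 or G4 replicate 2, and by 0.81 in exons, lost without WT replicate 1, WT replicate 2 or G4 replicate 1 and without its leading copy (0.18, adjusted p = 0.75).

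The other classes of name and place are given by their change in G4 against WT. RLTR10A rose by 1.20 far from genes and by 0.98 in introns, where 1 copy held 51.1% of the counts and the others differed by 0.12 (adjusted p = 0.738). RLTR10F rose by 1.99 in exons, 1.496 in introns and 1.00 near genes, and RLTR10D by 1.68 in exons, 1.68 in introns and 0.72 near genes, while its far copies differed by 0.87 (adjusted p = 0.0679) and passed without WT replicate 3 (1.30) or with library totals (1.02). RLTR10B fell in introns by 1.34, lost without WT replicate 1 (-0.91), G4 replicate 3 (-1.20) or the leading copy (-1.22), and RLTR10D2 by 0.67, lost without WT replicate 1 or 2 or G4 replicate 1 or 2, with library totals (-0.52) and without the leading copy (-1.15, adjusted p = 0.107). The call of RLTR10D near genes was lost without any 1 of 4 libraries (WT replicate 1 or 2, G4 replicate 2 or 3), and the value was 1.19 without the leading copy. The classes of RLTR10F had too few counts to test without theirs, which held 90.4 to 96.5% of the counts in exons, in introns and near genes. Of 35 classes of name and place with enough counts to test, 15 rose and 9 fell in G4 against WT, where 39.0% of all such classes were called. In G1 against WT none rose and 4 fell (6.45% of all classes called), and in G4 against G1 13 rose and 5 fell (32.2%). Without WT replicate 2, or with library totals, 5 of the member classes fell in G4 against WT, and without WT replicate 2 1 fell in G1 against WT. Without the leading copy of each class 27 could be tested, of which 8 rose and 4 fell in G4 against WT.

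**Figure D2:**
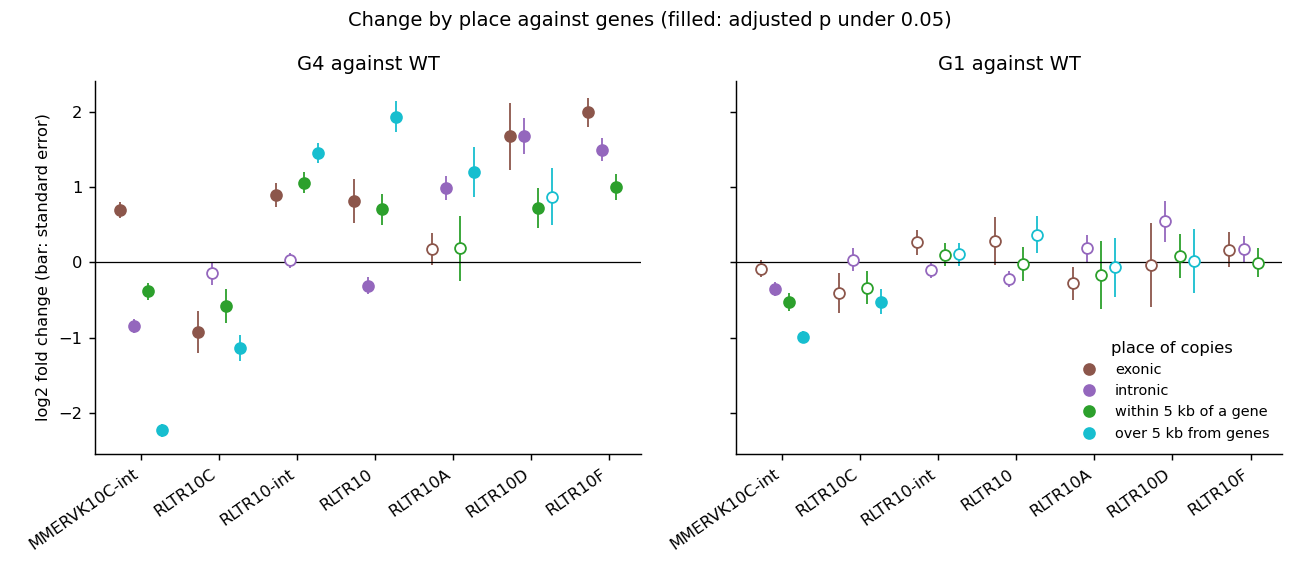
Log2 fold change by repeat name and by place against genes (exonic, intronic, within 5 kb, over 5 kb), from edgeR. Panels are G4 against WT and G1 against WT, bars are standard errors and filled points have an adjusted p under 0.05; far MMERVK10C-int lies lowest at -2.23 in G4 against WT, and far RLTR10 at 1.93.

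Long internal copies accounted for most of the fall. The 193 MMERVK10C-int copies of at least 3000 bp were at 1283, 1374 and 1234 CPM in WT, 722, 758 and 727 CPM in G1 and 345, 307 and 318 CPM in G4. They differed by -2.005 on the log2 scale in G4 against WT (SE 0.0658, adjusted p = 6.55e-16), and fell by 0.82 in G1 against WT and by 1.19 in G4 against G1. The 756 shorter copies were at 996, 1091 and 971 CPM in WT, 721, 738 and 787 CPM in G1 and 814, 824 and 871 CPM in G4. Their fall was 0.28 in G4 against WT (adjusted p = 0.000648) and 0.44 in G1 against WT (adjusted p = 3.82e-05). From G1 to G4 they went up by 0.16 (adjusted p = 0.0426), a call that was lost without any 1 of 4 libraries (G1 replicate 1 or 2, G4 replicate 2 or 3). Of the copies of at least 3000 bp, 25.4% had whole values in every library. The long copy chr3:96508641-96513739, within 1 Mb of Terc, had 951 counts over the WT libraries and 108 over those of G4. The split by length was not run without that copy.

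Joined and lone LTRs of a name were then compared. Joined RLTR10C was at 145, 164 and 149 CPM in WT, 117, 108 and 99.96 CPM in G1 and 63.8, 85.9 and 63.1 CPM in G4, and fell by 1.10 in G4 against WT (SE 0.137, adjusted p = 2.03e-06) and by 0.50 in G1 against WT (adjusted p = 0.0211). Lone RLTR10C copies differed by -0.24 in G4 against WT (adjusted p = 0.0813, and 0.0428 with joining within 1000 bp), and the joined change minus the lone one was -0.87 (SE 0.173). Joined RLTR10F rose by 1.60 and lone RLTR10F differed by -0.03, a difference of 1.62 (SE 0.411). For RLTR10A it was the lone copies that rose, by 1.02, while joined ones differed by 0.15 (adjusted p = 0.504). The joined minus the lone change of RLTR10A was -0.86 (SE 0.221). That last contrast depends on the distance: with joining within 1000 bp in place of 100 bp, joined RLTR10A rose by 0.86. Joined RLTR10 rose by 0.37 and lone RLTR10 differed by 0.15, and joined and lone RLTR10D rose by 1.17 and 1.46. The joined minus the lone change was 0.22 (SE 0.177) for RLTR10 and -0.29 (SE 0.365) for RLTR10D, both within 2 SEs of 0.
Of 17 such classes tested, 5 rose and 1 fell in G4 against WT (44.1% of all classes called), none rose and 1 fell in G1 against WT (10.2%), and 5 rose and 1 fell in G4 against G1 (38.8%). The fall of joined RLTR10C in G1 was lost without WT replicate 2, G1 replicate 2 or G1 replicate 3 (adjusted p = 0.0815, 0.072 and 0.0865).

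**Figure D3:**
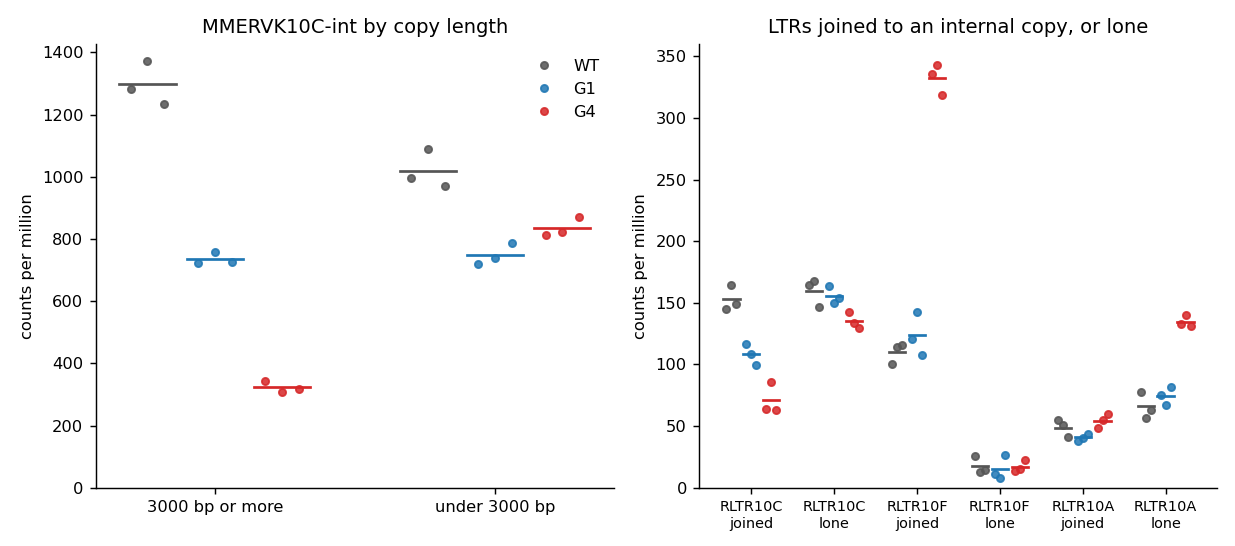
Level in each library (CPM, linear axes from 0) of MMERVK10C-int copies of at least 3000 bp and of shorter ones, and of joined and lone copies of RLTR10C, RLTR10F and RLTR10A. Points are libraries and lines group means; the long copies are at 307 to 345 CPM in G4, below all other libraries, and joined RLTR10F is at 318 to 343 CPM in G4.

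Neighbouring copies were then read together as loci, a grouping added after the values were seen. A locus with the same LTR name at both ends of an internal part is called a provirus or full provirus here, which does not show that its internal part is complete. A locus with RLTR10C at both ends of MMERVK10C-int occurred 66 times with a median span of 7106 bp and held 23.9% of the member counts. The summed level of these loci was 1512 ± 94.4 CPM in WT, with 785 ± 43.9 CPM in G1 and 302 ± 35.7 CPM for G4 (SD, n = 3). Loci with many counts weigh most in this sum, above all the provirus near Hfe2, whose levels are given below. That provirus lies within 1 Mb of Terc, and the sum was not taken without it. Of the 27 loci with enough counts to test, none rose and 21 fell in G4 against WT, with log2 fold changes from -5.31 to -0.37 over the 27. None rose and 9 fell in G1 against WT, and none rose and 16 fell in G4 against G1.
RLTR10 at both ends of RLTR10-int occurred at 99 loci with a median span of 2875 bp and 17.1% of the member counts. Their summed level was 539 ± 17.7 CPM in WT, 509 ± 52.8 CPM in G1 and 780 ± 6.26 CPM in G4. Of 17 tested, 8 rose and 4 fell in G4 against WT, none was called in G1 against WT, and 8 rose and 2 fell in G4 against G1. The other 1882 loci, mostly of 1 copy, went from 1923 ± 61.3 CPM in WT to 1826 ± 1.32 CPM in G1 and 2580 ± 47.9 CPM in G4.
Over all 79 member loci tested, 17 rose and 34 fell in G4 against WT. There 42.5% of all features tested at this level were called, 21.2% higher and 21.3% lower. None rose and 10 fell in G1 against WT (6.77% called, 2.4% higher and 4.37% lower). In G4 against G1 17 rose and 23 fell (38.1% called, 19.0% higher and 19.2% lower). A locus with counts in only 1 group passes the count filter through that group, so these counts describe the loci and test nothing.

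**Figure D4:**
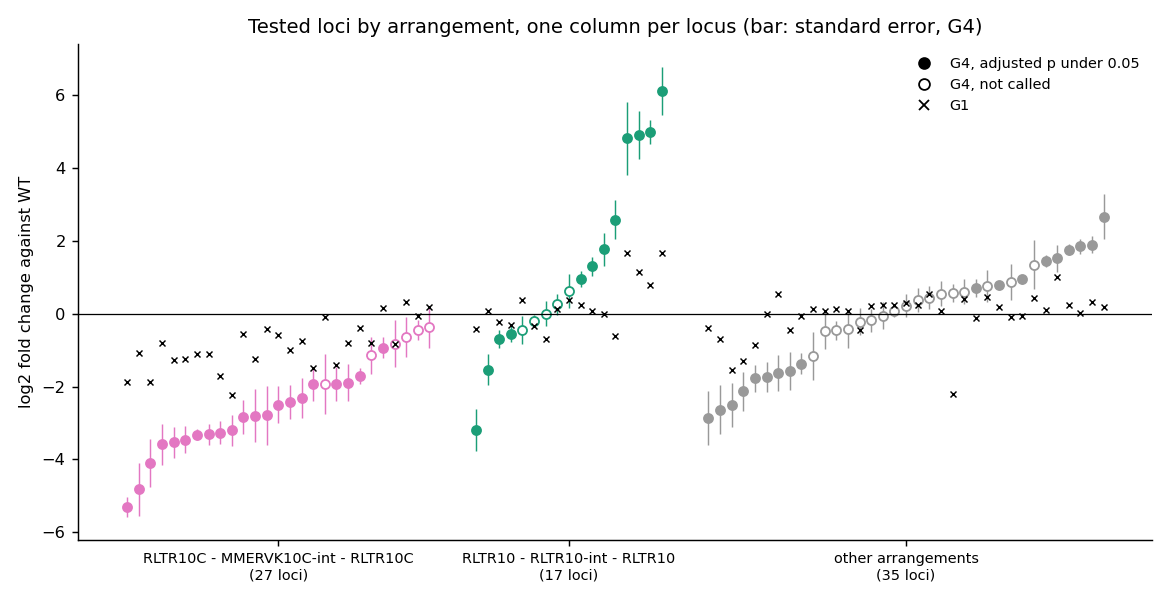
Log2 fold change of each tested locus by its make-up, from edgeR, with filled points for an adjusted p under 0.05. Points with standard errors are G4 against WT and crosses G1 against WT; the 27 loci with RLTR10C at both ends of MMERVK10C-int all lie below 0 in G4, and the 17 with RLTR10 at both ends of RLTR10-int lie on both sides.

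The deepest fall was at a full provirus on chromosome 1, over 5 kb from Sccpdh (chr1:179654039-179661095, plus strand). It was at 138, 135 and 125 CPM in WT, 33.2, 37.3 and 38.7 CPM in G1 and 1.21, 4.57 and 3.96 CPM in G4. The levels stepped down from WT to G1 to G4 without overlap, with log2 fold changes of -1.86 in G1 and -5.31 in G4 against WT (adjusted p = 7.93e-08 and 2.84e-14). Its internal copy, chr1:179655631-179660663, held 129, 118 and 128 counts in WT, 31.3, 40.1 and 34.7 in G1 and 0.5, 3.84 and 3.82 in G4.

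The full provirus of this make-up with the most counts lies at chr3:96508210-96515310 on the minus strand, over 5 kb from Hfe2, the hemojuvelin gene, and holds the Gm40100 window printed above. It was at 489, 515 and 398 CPM in WT, 215, 203 and 229 CPM in G1 and 50.4, 35.2 and 54.2 CPM in G4. The log2 fold change was -1.11 in G1 and -3.32 in G4 against WT (adjusted p = 1.57e-15 for G4). Its 5 tested parts all fell in G4. The internal copies chr3:96508641-96513739, chr3:96513732-96514223, chr3:96514265-96514535 and chr3:96514534-96514876 and the RLTR10C copy chr3:96508210-96508640 changed by -3.21, -4.64, -3.97, -3.21 and -2.91 in G4 against WT. The 271 bp copy chr3:96514265-96514535 had whole values only, at 32, 50 and 27 counts in WT, 17, 24 and 22 in G1 and 2, 3 and 2 in G4. The copy chr3:96513732-96514223 had 79.1 counts over the WT libraries and 2.83 over those of G4, a ratio of 0.0361 of the CPM (95% counting interval 0.00728 to 0.109).

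The provirus near Hfe2 is 93351 bp from Terc, and another full provirus with the same make-up, chr3:96313466-96320576, lies 93861 bp from Terc on its other side. The latter was at 70.8, 75.2 and 66.2 CPM in WT, 42.8, 65.5 and 53.9 CPM in G1 and 19.8, 17.9 and 26.1 CPM in G4. It fell by 1.71 in G4 against WT (adjusted p = 6.84e-07) and differed by -0.38 in G1 against WT, where WT and G1 did not overlap but the test did not pass (adjusted p = 0.281). The 15 member copies within 1 Mb of Terc held 8.05% of the member counts. Without them MMERVK10C-int differed by -0.71 in G4 against WT (adjusted p = 2.03e-10), -0.56 in G1 against WT and -0.15 in G4 against G1 (adjusted p = 0.0201), and RLTR10C by -0.46 in G4 against WT. Whether DNA beside the targeted allele plays a part was not tested.

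Full proviruses elsewhere fell too. The locus chr4:123723199-123730296, between Ndufs5 and Akirin1 and in part within 5 kb of them, holds the internal copy chr4:123724857-123729864 and was at 34.0, 56.8 and 40.1 CPM in WT, 17.5, 21.4 and 15.2 CPM in G1 and 5.49, 2.56 and 3.33 CPM in G4 (log2 fold change -3.46 in G4 against WT, and -1.25 in G1, lost without WT replicate 2). The locus chr10:21727900-21736346, over 5 kb from Gm29323 and holding the internal copy chr10:21728332-21735911, was at 38.7, 32.9 and 29.8 CPM in WT, 11.2, 2.92 and 7.81 CPM in G1 and 2.75, 2.56 and 4.68 CPM in G4. Its log2 fold change was already -2.22 in G1 and -3.20 in G4 against WT, and G1 and G4 overlapped, their difference passing without G1 replicate 2 (-1.43). The internal copy chr1:174458233-174463264, over 5 kb from the olfactory receptor gene Olfr220, held 17.1, 33.9 and 14.9 counts in WT, 13.3, 13.8 and 12.2 in G1 and 0, 0 and 6.01 in G4 (log2 fold change -3.47).

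RLTR10 proviruses gave the largest rises, from levels near 0. The locus chr5:104693301-104696871, over 5 kb from Gm8258, was at 4.17, 2.09 and 3.84 CPM in WT, 4.17, 10.6 and 2.20 CPM in G1 and 119, 118 and 96.8 CPM in G4 (log2 fold change 4.997 against WT). It passed the count filter through its G4 libraries alone, so no p is given. WT and G1 overlapped, and every G4 library was far above both. Its copy chr5:104693807-104694842 had 2 counts over the WT libraries, 6 over G1 and 125 over G4, 59.3 times the WT CPM (95% counting interval 16.1 to 495). Its left LTR, chr5:104693301-104693806, went from 3 counts in each of WT and G1 to 99 in G4, 31.3 times the WT CPM (95% counting interval 10.4 to 155).
A provirus in an intron of 6330411D24Rik, chr4:142977451-142980003, went from 2 counts in WT and 5 in G1 to 75 in G4 (CPM ratio 35.6, 95% counting interval 9.52 to 299). One within 5 kb of Gm25781, chr14:120793510-120796442, went from 1 and 4 counts to 100 (CPM ratio 94.9, 95% counting interval 16.7 to 3787). The intervals cover counting error only, over the pooled counts of a group. These loci and copies too passed the count filter through G4 alone and were picked as the largest rises. Their intervals thus describe the counts and are no test. Unlike these loci, the RLTR10 provirus with the most counts, in an intron of the p53 target Aen (chr7:78898962-78901831), was at 118, 136 and 164 CPM in WT, 106, 124 and 102 CPM in G1 and 137, 104 and 130 CPM in G4, and differed by -0.19 in G4 against WT (adjusted p = 0.326).

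**Figure D5:**
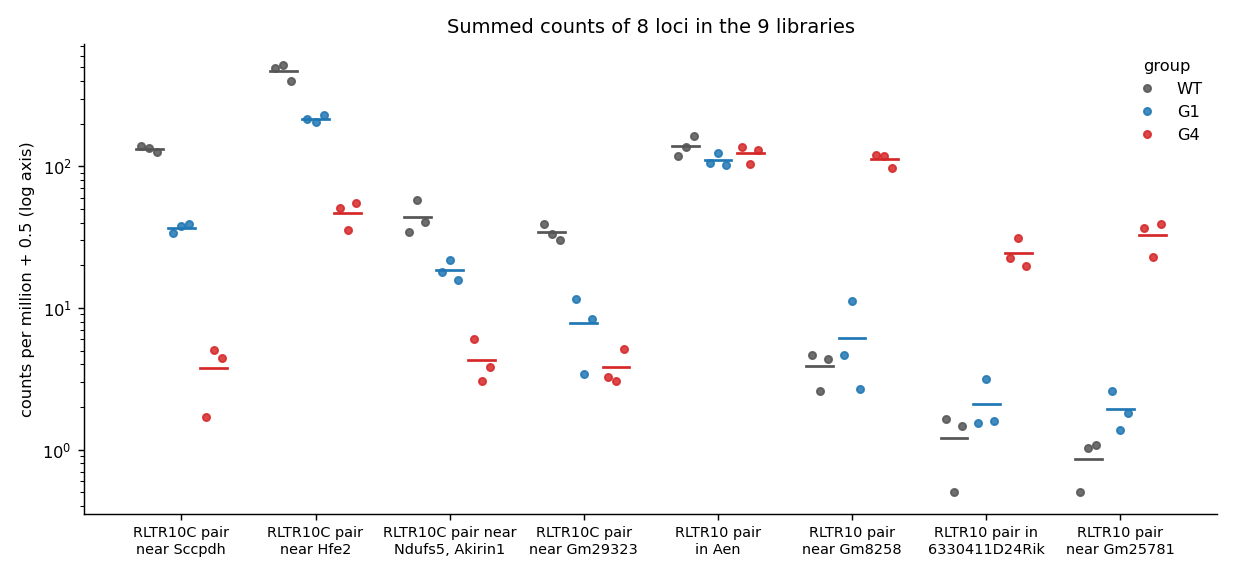
Level of 8 loci in each library (CPM plus 0.5, log axis), 4 with RLTR10C at both ends of MMERVK10C-int (near Sccpdh, Hfe2, Ndufs5 with Akirin1, and Gm29323) and 4 with RLTR10 at both ends of RLTR10-int (in Aen, near Gm8258, in 6330411D24Rik and near Gm25781). Points are libraries; the first 4 loci step down from WT to G4, and 3 of the last 4 are high only in G4.

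A few copies moved in a way of their own. A pair of internal copies on chromosome 11 near the pseudogene Gm11631 fell in G1 and not in G4. The copy chr11:98068322-98070141 held 20, 24 and 13 counts in WT, 4, 3 and 8 in G1 and 18, 33 and 32 in G4, and chr11:98070178-98071996 held 4, 17 and 15, then 1, 2 and 2, then 18, 23 and 23. Both had whole values, and the first fell by 1.91 in G1 against WT (adjusted p = 0.00639, lost without G1 replicate 2, at -1.57 with adjusted p = 0.0537) and the second by 2.77 (adjusted p = 0.00477). From G1 to G4 they rose by 2.36 and 3.52. Together, as 1 locus, they changed by -2.21 in G1 against WT, by 2.79 in G4 against G1 and by 0.57 in G4 against WT (adjusted p = 0.0788), a difference that passed without WT replicate 2 (0.82, adjusted p = 0.0289).

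Copies in or beside genes took part in the rises. The MMERVK10C-int copy with the most counts, chr5:114822402-114822894 in an exon of 1500011B03Rik, held 15.5% of the counts of its name, at 171, 191 and 216 in WT, 201, 180 and 170 in G1 and 323, 394 and 453 in G4. It rose by 0.94 in G4 against WT (adjusted p = 3.70e-07), and without it MMERVK10C-int as a whole fell by 1.42 in G4 against WT.
RLTR10F rose at 3 places that share a design, an RLTR10F copy of 311 bp next to a short MMERVK10C-int copy on chromosome 4. These were chr4:146469081-146469391 in an exon of the KRAB zinc finger gene Zfp992 (24.3, 26.3 and 27.3 counts in WT, 19.7, 41.1 and 26.4 in G1, 107, 120 and 103 in G4, log2 fold change 2.03), chr4:147181403-147181713 in an intron of Gm26624 (1.73) and chr4:145830766-145831076 near Znf41-ps (1.31). The neighbouring MMERVK10C-int copies chr4:147181714-147181938 and chr4:145831077-145831301 rose by 1.92 and 1.72. Reads may be shared among these copies, since few had whole values: 5.13% of the RLTR10F counts lay in whole-value copies.
The long noncoding gene E330020D12Rik on chromosome 1 holds several RLTR10A and RLTR10-int copies. Its intronic RLTR10A copy chr1:153407678-153408072 held 12.6, 18.6 and 21.5 counts in WT, 18.1, 25.9 and 25.4 in G1 and 62.5, 75.2 and 74.1 in G4 (log2 fold change 1.89), while its exonic copies rose by 0.66 (RLTR10-int, chr1:153405393-153406130) or differed by 0.25 (RLTR10A, chr1:153405014-153405392, adjusted p = 0.38). In Gm10033 an exonic RLTR10 copy, chr8:69381618-69382000, went from 3, 4.4 and 10 counts in WT and 5.01, 5 and 6 in G1 to 24.9, 20 and 18 in G4 (log2 fold change 1.82).

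Other copies with the most counts of their names were mostly in or near genes. RLTR10 in an intron of Kdsr (chr1:106730711-106731165) and in Aen (chr7:78901372-78901831) differed by -0.88 and -0.74, calls that were lost under DESeq2 (adjusted p = 0.0605 and 0.145) and without WT replicate 2, G4 replicate 1 or G4 replicate 2, and the latter also without G4 replicate 3 and with library totals. RLTR10-int in Aen (chr7:78899432-78901371) differed by -0.07, RLTR10C in an intron of Hjurp (chr1:88270794-88271290) by 0.38, and RLTR10E in an exon of Tfb2m (chr1:179528527-179528847) and near Gm1818 (chr12:48554651-48554974) by 0.08 and -0.18, none of them called. For RLTR10D the leading copies, near Serpinb6c and near Gm9255, had 53 and 43.9 counts over all libraries and were below the count filter.

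Among all single copies with enough counts, 70 were members, of which 18 rose and 28 fell in G4 against WT. There 42.5% of all 13278 copies tested were called, 21.3% higher and 21.3% lower. In G1 against WT none rose and 9 fell (6.77% called, 2.41% higher and 4.36% lower). In G4 against G1 19 rose and 19 fell (38.2% called, 19.0% higher and 19.2% lower). The 3 libraries of each group did not overlap for 49, 23 and 40 of the 70. The same share over all copies tested was not counted, so nothing is read from these numbers. A copy with counts in only 1 group passes the count filter through that group, so the counts of calls describe the copies and test nothing. By name, 4 rose and 23 fell of 36 MMERVK10C-int copies, 8 rose and 1 fell of 15 RLTR10-int copies, and all 3 RLTR10F copies rose. By place, 3 rose and 13 fell of the 19 far copies, and 5 rose and 1 fell of the 10 exonic ones. By length, 1 rose and 18 fell of 23 MMERVK10C-int copies of at least 3000 bp, and 3 rose and 5 fell of 13 shorter ones. The shares called over all copies of the same place or length were not counted, so these splits are not set against each other. Over the 36 MMERVK10C-int copies, Spearman's rho of the G4 against WT change was 0.42 with the divergence score and -0.33 with the length, given as a description, since the copies share libraries and reads.

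Genes listed for a link to ERVK silencing were read through repeats in their exons, which 29 of 33 listed genes have, and 20 had enough counts. The list is mixed and includes the methylcytosine dioxygenase genes Tet1 and Tet2, so its counts and its sum are not those of silencers alone. In G4 against WT 8 rose and 4 fell, with 48.4% of all genes tested this way called. In G1 against WT 3 rose and 3 fell (11.1% called), and in G4 against G1 6 rose and 4 fell (43.3% called).
The H3K9 methyltransferase gene Suv39h1 went from 330, 385 and 438 CPM in WT to 272, 281 and 270 CPM in G1 and 86.3, 86.2 and 75.3 CPM in G4, a fall of 2.22 in G4 against WT (SE 0.122, adjusted p = 1.96e-22). Of the others called with the most counts, the HUSH complex gene Pphln1 fell by 0.95 and the zinc finger gene Zfp809 by 0.49. The chromatin remodeller gene Hells rose by 0.36, the methylcytosine dioxygenase gene Tet1 by 0.90 and Resf1, whose product binds SETDB1, by 0.43. The same 6 genes were called in the same direction in G1 against WT, at -0.49, -0.45, -0.29, 0.49, 0.34 and 0.49. Trim28 and Setdb1 were added to those named for their known role. Setdb1 was at 126, 128 and 136 CPM in WT and 146, 169 and 148 CPM in G4 and differed by 0.24 (adjusted p = 0.133), and Trim28, at 15.9, 27.1 and 16.3 CPM in WT and 45.8, 34.3 and 33.8 CPM in G4, rose by 0.93. Summed over the list, the level was 4079 to 4359 CPM in WT, 4311 to 4642 CPM in G1 and 4021 to 4146 CPM in G4. Cbx5 held the largest part of this sum, with means of 1399, 1567 and 1386 CPM. How the listed genes bear on the members was not tested.

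Markers of cell type differed between the same groups. Through exonic repeats, 48.4% of all genes tested were called in G4 against WT, 11.1% in G1 against WT and 43.3% in G4 against G1. These shares stand beside each marker list below. ESC genes, read for 7 of 14 listed, of which 6 were tested, rose 5 of 6 in G4 against WT, 4 of 6 in G1 against WT and 5 of 6 in G4 against G1, with none called lower. Their summed level was 8054 to 8490 CPM in WT, 12342 to 13082 CPM in G1 and 23780 to 27742 CPM in G4. Tdgf1 held the largest part of this sum, with means of 4335, 6688 and 16484 CPM. The pluripotency factor Nanog was among the genes that rose, at 1225 to 1399 CPM in WT and 3298 to 3981 CPM in G4, as were Tdgf1 (1.93), Tfcp2l1 (1.65), Fgf4 (0.72) and Esrrb (2.77).
Primitive endoderm genes, 6 of 11 of them readable and 4 tested, fell 4 of 4 in each of the 3 contrasts. Gata4, a defining factor of that lineage, was at 705, 769 and 765 CPM in WT, 325, 328 and 378 CPM in G1 and 12.8, 24.6 and 19.1 CPM in G4. The basement membrane gene Col4a2, Sox7 and Pdgfra fell by 5.34, 5.18 and 3.01 in G4 against WT. The summed level of the list was 4539 to 4584 CPM in WT, 2005 to 2131 CPM in G1 and 104 to 127 CPM in G4, the same order as for the far MMERVK10C-int copies. In WT, a group labelled ESC, Col4a2, Gata4, Sox7 and Pdgfra were thus not near 0, at means of 3500, 746, 262 and 48.2 CPM. Most of the summed level was Col4a2. Dab2 and Lamb1 had too few counts to test and were near 0 in WT, at means of 2.37 and 1.70 CPM. The part of these genes in the result was not tested.
Feeder fibroblast genes, 4 tested, rose 2 and fell 1 in G4 against WT, with Col1a1 at 0.94, Fn1 at 2.16 and Pdgfra, which is on both lists, at -3.01. Their summed level was 85.6 to 124 CPM in WT, 114 to 152 CPM in G1 and 129 to 131 CPM in G4. Of 10 genes of the 2-cell-like state 2 were readable and none had enough counts to test, at 0 to 2.09 CPM in WT, 0 CPM in G1 and 6.93 to 16.0 CPM in G4.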

How the data were processed

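The estimated counts, as deposited by the authors, are expected counts per single repeat copy of the mm10 assembly, and the step that split reads among copies is not given in the sources used here. Per the labels, FastQC 0.11.9, STAR 2.5.3a and featureCounts were used. The deposited signal values are these counts, rounded and divided by 1 size factor per library, and only that relation was checked. Columns named Control were taken as WT. Counts were summed per repeat name, class or locus, rounded, filtered with filterByExpr (minimum 10), scaled by TMM and fitted over all features and all 9 libraries with edgeR 4.0.16 (quasi-likelihood, no block) in R 4.3.3. Tests were two-sided, with Benjamini-Hochberg adjustment per level and contrast and calls at an adjusted p under 0.05. An SE was had by dividing the log2 fold change by the root of F. Exonic copies had 0.5 or more of their length inside GENCODE vM21 exons. DESeq2 1.42.0 was an alternative, and the fit was tested on simulated data. Counting intervals are exact binomial (Clopper-Pearson). Copies were named from those called without overlap and with a mean of 10 counts per library or more, 8 each way by log2 fold change in G4 against WT and 4 in each other contrast, and from those with the most counts (5 of MMERVK10C-int, 2 of each other name with a mean of 50). Called genes were named, at most 6 per list by mean count, with Trim28 and Setdb1 added for their role. Loci and the window around Terc were added after values were seen. Members and lists were chosen with earlier results of these data known.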

Additional observations from a re-analysis of the deposited data

How the results depend on the processing

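The direction of each called value for names, classes, copies and loci was kept under the alternatives run, with 1 exception: without the leading copy of each class, exonic MMERVK10C-int differed by -0.0301 in G4 against WT. Differences that were not called could change sign, as RLTR10E did in that contrast without G4 replicate 3 (-0.04). Counts of calls that moved by over 1.5 times were as follows, and the cause was not tested except where the setting itself leaves fewer reads or copies. Over copies with whole values, member names that rose were 3 in G4 against WT and 2 in G4 against G1, and 1 name fell in G4 against WT and 0 in each other contrast. Over copies over 5 kb from genes 3 names rose in G4 against WT and 3 in G4 against G1, and 2 fell in G1 against WT. With a fold over 1.5 and an unadjusted p, 3 names rose and 0 fell in G4 against G1, and 19 copies fell and 1 rose in G1 against WT. With library totals 1 name fell in G4 against G1, and 5 names split by place fell in G4 against WT. DESeq2 gave 5 copies that fell in G1 against WT. With no filter 12 copies fell in G4 against G1, and with a filter minimum of 20 counts 11 fell in that contrast and 15 in G4 against WT, fewer copies being tested. Without the leading copy of each class 8 names split by place rose and 4 fell in G4 against WT, and 8 rose and 3 fell in G4 against G1. With joining within 1000 bp, 2 LTR classes fell in G4 against WT.

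Leaving out 1 library gave 5 to 9 names split by place that fell in G4 against WT (5 without WT replicate 2) and 1 to 4 in G1 against WT (1 without WT replicate 2, and 2 without G1 replicate 1 or 3), and 0 to 1 LTR class split by joining that fell in G1 against WT. It gave 2 to 4 genes of the silencing list that fell in G4 against G1 (2 without G1 replicate 2 or G4 replicate 3). It gave 0 to 1 ESC gene that fell in G4 against WT (1 without G4 replicate 2). For the feeder list it gave 0 to 1 gene that fell in G1 against WT, 0 to 1 that rose there and 0 to 1 that rose in G4 against G1.

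The replicate numbers did not pair the libraries: correlations of same-numbered libraries were -0.0247 to 0.0192, with 0 of 9 pairs over 0.1, and 2 of 9 libraries correlated best with their own number. With a replicate block MMERVK10C-int differed by -0.997 in G4 against WT, 5 names rose and 2 fell there, and 18 copies rose and 28 fell. Of the loci, the block ended the call at Kdsr (-0.54, adjusted p = 0.0613), and at 2 others and made 1 of a locus in Ttc28 (-1.79, adjusted p = 0.0429). Libraries of a group differed beyond sampling noise (chi-square per degree of freedom 1.52 to 1.98 over 20145 copies), so none was counted as a duplicate. Without chromosomes 6, X and Y, without the leading copy of each name and without copies within 1 Mb of Terc, the calls by name were those given above, although RLTR10A went to 0.35 in G4 against WT without its leading copy. The loci, the window around Terc, the leading copies of classes, and the left-out libraries, block and scalings of classes, gene lists and loci were chosen after seeing the data. Depth limits single copies most: 2479 of the 3306 members had under 5 counts in all libraries together.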
